A study of Mus musculus with 8 samples.

Results

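The LIM genes of this comparison were 5 LIM homeobox genes (Lhx2, Lhx6, Lhx8, Lhx9 and Isl1) and 4 genes of their cofactors (Ldb1, Ldb2, Lmo2 and Lmo4), taken by gene symbol from a platform annotation because Lhx2 was the gene deleted in the study. All 9 were measured, each by 1 probe set, among 19938 genes and 35556 probe sets. Levels came from Affymetrix Mouse Gene ST arrays, hybridised with RNA of hepatic stellate cells that had been sorted from liver for their vitamin A autofluorescence. Hepatic stellate cells are the vitamin A storing pericytes of the liver sinusoid. The 4 control arrays (1 to 4) were from Lhx2 floxed mice without Cre, and the 4 knockout arrays (5 to 8) were from Lhx2 floxed mice that carried Mx1Cre, all on a C57BL/6J background. Mice of both groups were given poly(I:C), which induces interferon, 3 times and were used 2 weeks later. The Mx1 promoter answers to interferon in many cell types, so excision in stellate cells, excision in other liver or blood cells and effects of the Cre transgene cannot be told apart. The sources used here state neither age nor sex, nor whether animals were pooled. Nothing in the labels ties an array to an animal of its own, and the p-values therefore refer to the spread between arrays, part of which may be technical.

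LIM homeobox proteins are transcription factors that pair a DNA-binding homeodomain with LIM domains, zinc-binding modules that bind other proteins. The LIM domains bind Ldb1 or Ldb2, nuclear adaptors that dimerise and so join LIM factors into larger complexes, and Ssbp proteins bind and stabilise the adaptors. LIM-only proteins such as Lmo2 and Lmo4 have LIM domains but no homeodomain, and they compete for the same adaptors or bridge them to other DNA-binding proteins. In the liver, Lhx2 is known as a factor of stellate cells whose loss in mice is accompanied by fibrosis.

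Lhx2, Ldb2 and Lmo4 were lower in the knockout, and the other 6 LIM genes did not pass the test. The mean level of Lhx2 stood at 63.3% of the control mean, that of Ldb2 at 69.0% and that of Lmo4 at 76.5%, on the linear scale. In a limma fit over all genes with Benjamini-Hochberg adjustment and a threshold of 0.05, 0 of the 9 genes were higher and 3 were lower, where 7.38% of all genes tested passed in either direction (3.76% higher and 3.63% lower). The arrays of the groups did not overlap for these 3 genes and overlapped for the other 6, where 12.7% of all genes did not overlap. With control 1 (most hepatocyte marker RNA of the controls) and control 4 (most endothelial marker RNA) both left out, 2 of the 9 were lower, since Lmo4 no longer passed. In that fit of fewer arrays, 3.89% of all genes passed in either direction.

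The upstream sequences of Lhx2 and Lmo4, which fell, and of Ldb1, which did not pass, are shown because the homeodomain family to which Lhx2 belongs binds DNA at TAAT cores. RefSeq promoter entries (GRCm38.p6) matched 7 of the 9 genes, with no entry used for Ldb2 and Lmo2. Each window ran from 250 to 51 bases before the most upstream start of the gene, 5′ to 3′ along the gene's strand, with GC boxes in capitals (GGGCGG, or its reverse complement CCGCCC).
Lhx2 (chr2:38339031-38339230, plus strand): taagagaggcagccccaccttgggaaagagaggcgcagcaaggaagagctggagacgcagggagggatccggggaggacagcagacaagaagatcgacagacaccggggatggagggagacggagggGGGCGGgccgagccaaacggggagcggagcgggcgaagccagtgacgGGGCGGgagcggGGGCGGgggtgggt
Lmo4 (chr3:144205306-144205505, minus strand): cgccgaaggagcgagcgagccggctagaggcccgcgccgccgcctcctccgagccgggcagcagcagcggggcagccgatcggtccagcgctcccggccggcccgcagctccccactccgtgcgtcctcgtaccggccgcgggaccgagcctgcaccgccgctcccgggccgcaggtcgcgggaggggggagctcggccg
Ldb1 (chr19:46045362-46045561, minus strand): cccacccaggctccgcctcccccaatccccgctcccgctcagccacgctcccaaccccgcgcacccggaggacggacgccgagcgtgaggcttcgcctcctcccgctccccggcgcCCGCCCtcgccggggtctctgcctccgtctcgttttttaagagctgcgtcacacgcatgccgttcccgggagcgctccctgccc
On both strands, the Lhx2 window held 3 GC boxes, the Ldb1 window 1 and the Lmo4 window 0. GC boxes occurred in 24.6% of 32851 windows of the same length and position. The motif TAATTA was in 0 of the 7 member windows and in 4.2% of all windows. The core TAAT, which TAATTA contains, occurred 2 times each in the Lhx9 and Isl1 windows and 0 times in the other 5, and it was in 50.1% of all windows. The windows of Lhx2, Lmo4 and Ldb1 had GC contents of 69.0%, 80.5% and 73.5%, above the median of 51.5% over all windows.

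Lhx2, the deleted factor, had log2 levels of 12.07, 11.88, 11.94 and 11.92 on the 4 control arrays and of 11.09, 11.24, 11.35 and 11.49 on knockout arrays 5 to 8. Every knockout array lay below every control array, and the knockout arrays were more spread, with an SD of 0.17 against 0.08 (n = 4 each). Relative to the control mean, the knockout arrays kept 55.1%, 60.9%, 65.8% and 72.8% of the Lhx2 level. The knockout minus control difference was -0.66 on the log2 scale (SE 0.09, 95% interval -0.85 to -0.47; limma adjusted p = 0.00136), the 396th smallest p of the 19938 genes. The p of an exact permutation test, two-sided, was 0.0286, which is the floor for 4 against 4 arrays. The floxed part of the gene is not given in the labels and the probes are not placed on it, so the remaining signal is not a measure of how many cells or alleles were recombined. In sorted bulk RNA, fewer cells with Lhx2 RNA and less Lhx2 RNA per cell cannot be told apart.

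Ldb2, an adaptor of LIM factors that is also known from endothelial cells, had control levels of 12.62, 12.61, 12.52 and 12.59 and knockout levels of 11.96, 12.09, 12.06 and 12.09. The groups were tight (SD 0.04 and 0.06, n = 4 each) and stood clear of each other. The difference was -0.54 (SE 0.05, 95% interval -0.65 to -0.42; limma adjusted p = 0.000216), the smallest p among the 9 genes. Ldb1, the more widely expressed of the 2 adaptors, had control levels of 12.54, 12.46, 12.56 and 12.46 and knockout levels of 12.39, 12.46, 12.57 and 12.53, which overlapped. Its difference was -0.02 (95% interval -0.15 to 0.11; limma adjusted p = 0.935), an interval that does not reach the change of Ldb2.

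The log2 ratio of Ldb2 to Ldb1 within an array was 0.08 ± 0.08 on control arrays and -0.43 ± 0.06 on knockout arrays (SD, n = 4 each). All 4 knockout ratios lay below all 4 control ratios. The difference of -0.52 (SE 0.05) had an exact permutation p of 0.0286 (two-sided, the floor again) and of 0.0858 after Benjamini-Hochberg adjustment over 3 such ratios, which this design cannot bring lower for 1 separated ratio among 3. The ratios were chosen after the values were seen, so this one restates the values of the 2 adaptors and is no separate evidence that they differed in their change. For Lhx2 over Ldb2 the change of the ratio was -0.12 (SE 0.07; exact permutation p = 0.143, 0.214 adjusted), so a different size of fall for the factor and its adaptor was not shown.

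Lmo4, a LIM-only protein of many tissues, had control levels of 11.07, 11.12, 11.01 and 11.17 and knockout levels of 10.53, 10.89, 10.68 and 10.73. The highest knockout array, knockout 6, was under the lowest control array. The difference was -0.39 (SE 0.08, 95% interval -0.56 to -0.21; limma adjusted p = 0.0157). The call was close to the threshold. It was lost without control 2 (adjusted p = 0.0512) and without control 1 and control 4 together (difference -0.36, adjusted p = 0.139), and over the 20 alternative settings the adjusted p ran from 0.0062 to 0.139 with a lower level in the knockout each time.

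Lmo2, a LIM-only bridge protein best known from blood and endothelial cells, had control levels of 9.26, 9.36, 9.07 and 9.60 and knockout levels of 8.72, 9.13, 9.12 and 9.08. The groups overlapped through control 3, and knockout 5 lay apart from the other knockout arrays. The difference of -0.31 (SE 0.13, 95% interval -0.59 to -0.02) had an unadjusted p of 0.036 and did not pass after adjustment (limma adjusted p = 0.235). Without knockout 5 the difference was -0.21, and the adjusted p lay between 0.0969 and 0.715 over the 20 alternatives. The change of the Lmo4 to Lmo2 ratio was -0.08 (SE 0.10; exact permutation p = 0.4, 0.4 adjusted), so the call of Lmo4 alone does not show that the 2 LIM-only genes differed in their change.

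**Figure D1:**
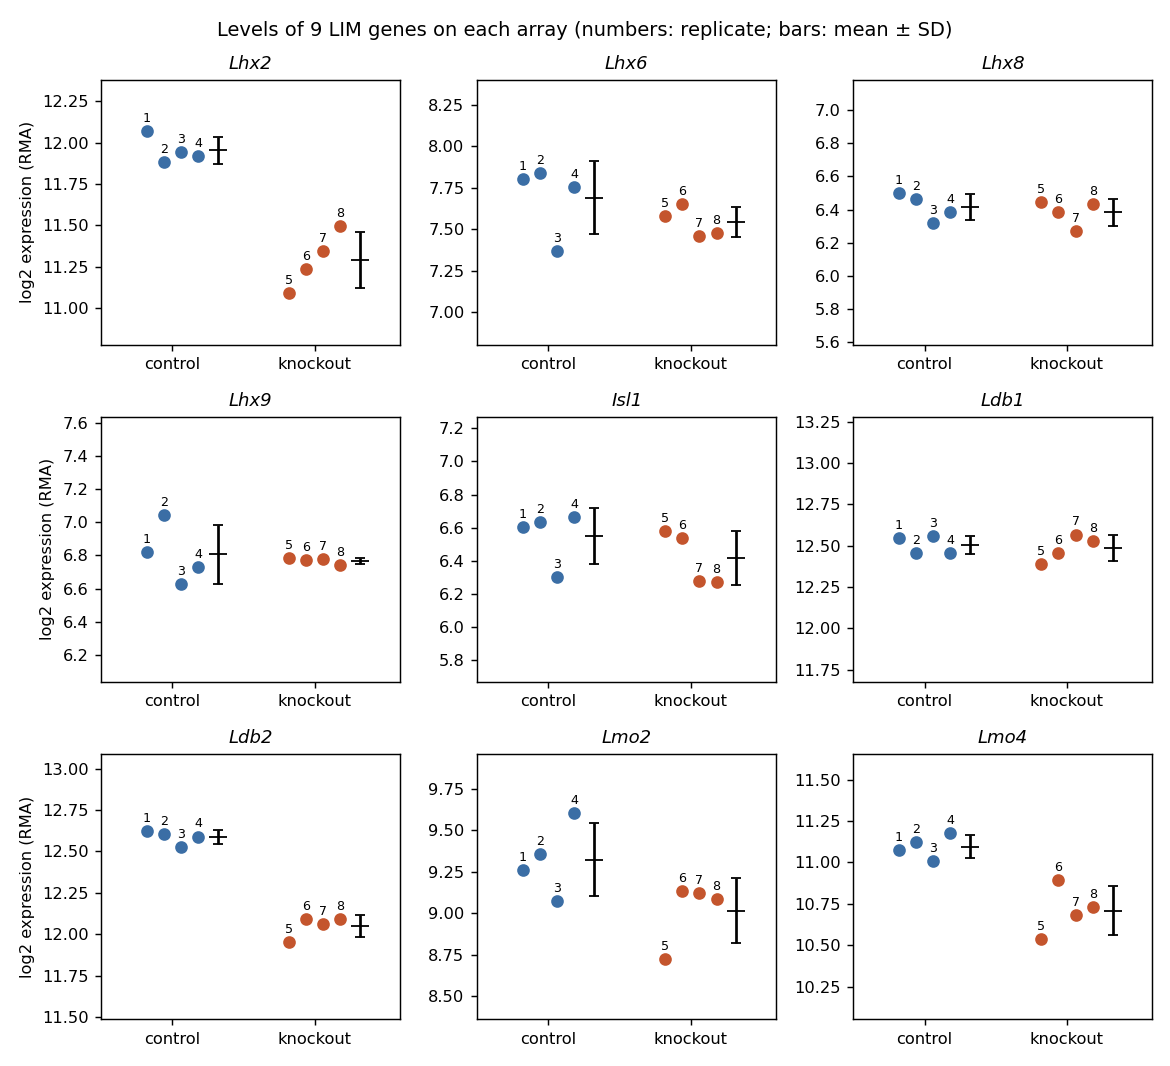
Log2 expression of the 9 LIM genes on each array, with 1 panel per gene, points numbered by replicate (control 1 to 4, knockout 5 to 8), bars giving the group mean ± SD, and the same span of log2 units on every vertical axis. The knockout points of Lhx2, Ldb2 and Lmo4 all lie below their control points, while those of the other 6 genes overlap them.

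The other 4 LIM homeobox genes showed no call, and Lhx8, Lhx9 and Isl1 among them were dim. Olfactory and vomeronasal receptor genes, 1190 in number and not known to be used by stellate cells, served as a guide to unexpressed levels, with a 95th percentile of 6.77. Lhx8, a factor of forebrain and tooth development, had control levels of 6.50, 6.46, 6.32 and 6.39 and knockout levels of 6.45, 6.38, 6.27 and 6.43, at or under that guide on all 8 arrays. Isl1, a factor of motor neurons, pancreatic islets and heart progenitors, ran from 6.30 to 6.66 on control arrays and from 6.27 to 6.58 on knockout arrays and was above the guide on 0 of 8 arrays. Lhx9, the relative of Lhx2 in the apterous group of the family, had control levels of 6.82, 7.05, 6.63 and 6.73 and knockout levels of 6.78, 6.77, 6.78 and 6.74, above the guide on 4 of 8 arrays. These 3 genes thus gave no clear signal in either group.

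Lhx6, a factor of interneurons and tooth mesenchyme, was above the guide on all 8 arrays, with control levels of 7.80, 7.84, 7.37 and 7.76 and knockout levels of 7.58, 7.65, 7.46 and 7.48. Its groups overlapped because of control 3, and the difference of -0.15 (95% interval -0.38 to 0.09) did not pass (limma adjusted p = 0.59). Without control 3 the difference of Lhx6 was -0.26, with a limma adjusted p of 0.0502. That was the lowest adjusted p of the 8 fits with 1 array left out, which ran up to 0.854 with 0 calls. Without control 1 and control 4 the difference was -0.06 (limma adjusted p = 0.971). Control 3 was also the lowest control array for Lhx8, Lhx9 and Isl1, and for Lhx1, Lhx3, Lhx4, Lhx5, Isl2 and Lmx1b of the wider LIM homeobox family. Its low level was thus not particular to Lhx6. The intervals of Lhx8, Lhx9 and Isl1 were -0.17 to 0.11, -0.23 to 0.15 and -0.37 to 0.10. Without control 3 the difference of Isl1 went from -0.13 to -0.22 and did not pass (limma adjusted p = 0.221). None of the 4 intervals reached a rise of 0.2 on the log2 scale, although differences of genes near the unexpressed level are compressed on these arrays.

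Knockout 5 had the lowest level of the 4 knockout arrays for Lhx2, Ldb1, Ldb2, Lmo2 and Lmo4, that is for 5 of the 9 genes, and it was the lowest for 21.0% of all genes. Leaving it out, the differences were -0.59 for Lhx2, -0.50 for Ldb2 and -0.33 for Lmo4, with limma adjusted p of 0.0029, 0.00078 and 0.0331. The falls of these 3 genes were thus present on the other knockout arrays.

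RNA of other liver cells varied between the arrays. The mean log2 level of 14 sinusoidal endothelial markers ran from 8.54 to 11.04 over the control and from 8.58 to 9.90 over the knockout arrays. Clec4g, an endothelial lectin, was the member of that list that was lower at the threshold, and 0 of the 14 were higher. The median difference of these 14 markers was -0.45, against -0.02 over all genes. Every one of them had a negative difference, from -1.23 (Clec4g) to -0.02 (Emcn). The endothelial marker Pecam1 had a level of 8.55 ± 1.13 on control arrays and of 8.08 ± 0.49 on knockout arrays (SD, n = 4 each), and each of the 14 was above the unexpressed guide on all 8 arrays. Hepatocyte markers (12 measured) ran from 9.23 to 11.28 and from 9.61 to 11.01, with 0 called, and 1 of 12 macrophage markers, Cd68, was lower. Of 10 portal fibroblast markers 4 were higher, namely Cd34 (3.08), Dpt (2.28), Eln (0.81) and Mfap4 (0.39), and 6 did not pass. Among those 6, Fbln2 and Clec3b had differences of 0.27 and 0.14. Entpd2, Thy1, Pi16 and Gli1 had differences of -0.29, -0.10, -0.01 and -0.01. The mean level of the list was 7.82 to 7.97 on control arrays and 8.47 to 8.67 on knockout arrays. Its median difference was 0.21, so the mean leans on Cd34 and Dpt. Of the stellate cell markers, Lrat and Des had levels of 13.65 and 12.42 on control arrays and did not pass (differences 0.10 and 0.07). The 12 markers of that list had a mean level of 12.91 to 12.99 on control arrays and of 12.65 to 12.67 on knockout arrays. In that list 5 of 12 were lower, namely Gfap (-1.48), Rgs5 (-0.52), Hand2 (-0.48), Hgf (-0.37) and Reln (-0.26), and 0 were higher. Beside the counts of these marker lists, 7.38% of all genes passed, 3.63% lower and 3.76% higher. The part of the portal fibroblast and stellate cell markers in the falls of the LIM genes was not tested.

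Lmo2 had the highest correlation of the 9 genes with the endothelial markers. Over the 8 arrays, after removal of the group means, its level and the mean endothelial marker level had a Pearson r of 0.74, against 0.58 for Lmo4, 0.34 for Ldb2 and 0.03 for Lhx2. For the hepatocyte markers, the highest r was that of Ldb1 at 0.74. These values describe 8 arrays that share labelling and normalization, and the differences between them were not tested. The array with the highest endothelial marker level, control 4, also had the highest Lmo2 level, and the lowest Lmo2 level was on knockout 5, at an endothelial marker level of 8.58. Control 1 had as low an endothelial marker level (8.54) as knockout 5, and its levels of Lhx2, Ldb2 and Lmo4 were 12.07, 12.62 and 11.07, against 11.09, 11.96 and 10.53 on knockout 5. Knockout 5 was the lowest knockout array for each of these genes, and the other knockout arrays lay closer to control 1. The values of this pair of single arrays carry no test. With the endothelial marker level as a covariate, the differences were -0.66 for Lhx2, -0.52 for Ldb2, -0.34 for Lmo4 and -0.21 for Lmo2, with limma adjusted p of 0.00388, 0.000817, 0.0304 and 0.33. Without the covariate the differences were -0.66 for Lhx2, -0.54 for Ldb2, -0.39 for Lmo4 and -0.31 for Lmo2. The part of endothelial RNA in these differences was not tested.

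**Figure D2:**
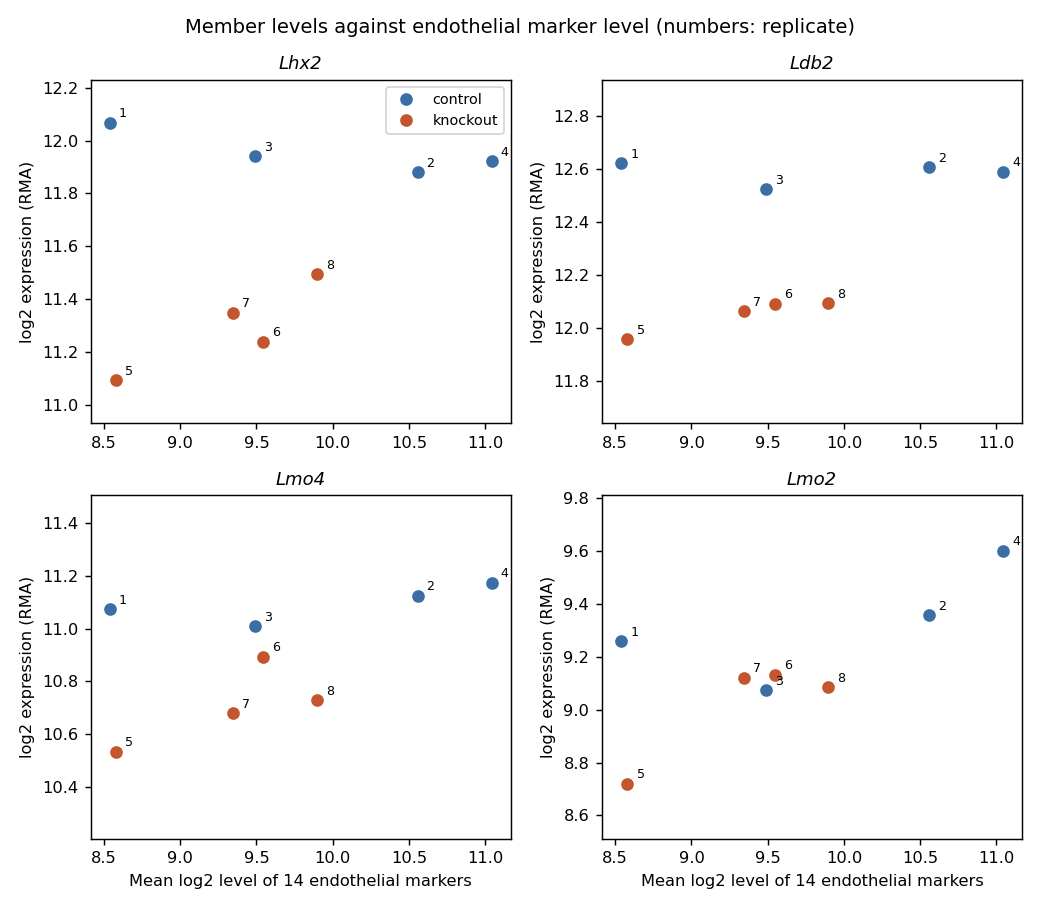
Log2 expression of Lhx2, Ldb2, Lmo4 and Lmo2 (vertical axes, 1 panel each) against the mean log2 level of 14 sinusoidal endothelial markers on the same array (horizontal axis), with points numbered by replicate. Control 1 and knockout 5 have nearly the same endothelial marker level (8.54 and 8.58) and differ for all 4 genes, for each of which knockout 5 is the lowest knockout array. The Lmo2 panel shows the highest endothelial marker level and the highest Lmo2 level on control 4.

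Of 11 measured genes of the whole LIM homeobox family, 1, the deleted gene Lhx2, was lower, 0 were higher and 10 did not pass, where 7.38% of all genes passed. The median difference was -0.06, against -0.02 over all genes. The 10 others included Lmx1b, a factor of limb and kidney development (8.26 ± 0.20 on control and 8.23 ± 0.16 on knockout arrays, SD, n = 4 each), and Lhx3 and Lhx4, factors of the pituitary, with differences of -0.06 and -0.07. No family member was called in the upward direction.

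Of 10 genes of LIM-only and LIM-binding cofactors, Ldb2 and Lmo4 were lower and 8 did not pass, with a median difference of -0.01, where 3.63% of all genes were lower. The Ssbp genes, whose proteins bind the adaptors, had differences of 0.03 (Ssbp2), 0.14 (Ssbp3) and 0.14 (Ssbp4). Ssbp3 had arrays that did not overlap, with an unadjusted p of 0.0374 and a limma adjusted p of 0.241. Rlim, a ubiquitin ligase that targets the adaptors, had a difference of 0.03 (SE 0.10). Lmo1 and Lmo3, LIM-only genes best known from neurons and leukaemia, had levels of 6.00 and 5.78 in the control group, under the unexpressed guide.

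**Figure D3:**
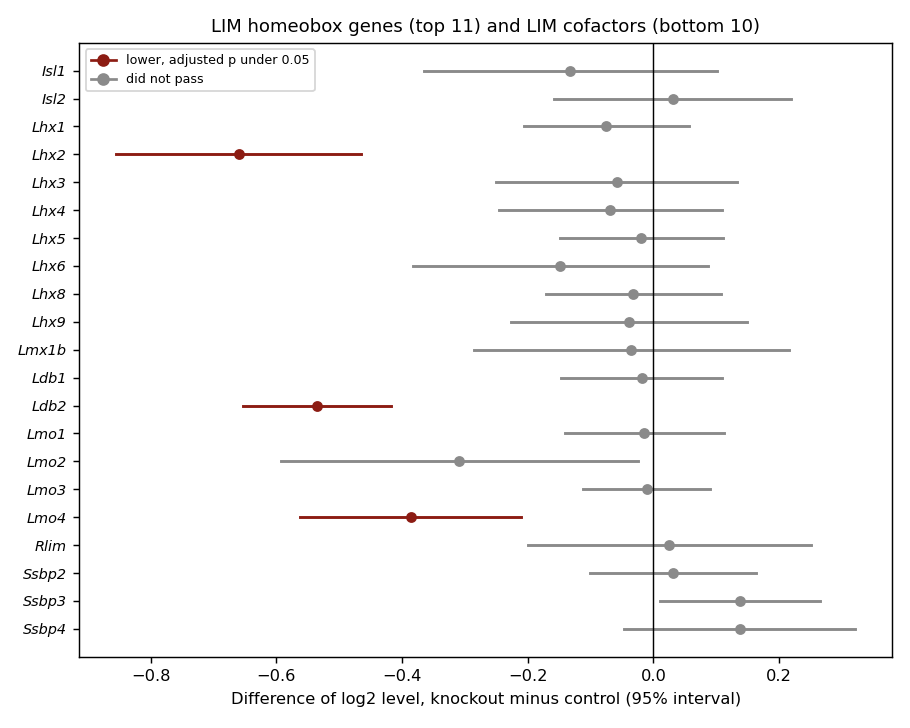
Knockout minus control difference of log2 level with its 95% interval for 11 LIM homeobox genes (top) and 10 LIM cofactor genes (bottom), dark red where the limma adjusted p was under 0.05. Lhx2, Ldb2 and Lmo4 stand to the left of 0, and the other points lie between -0.31 (Lmo2) and 0.14 (Ssbp3 and Ssbp4).

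Partners of Lmo2 in blood and endothelial cells, among them Tal1, Lyl1, Gata2 and the E proteins, held 0 calls among 11 measured genes in limma, 1 of them with an unadjusted p under 0.05. That gene was Fli1, an ETS factor, with a difference of -0.18 (SE 0.08; adjusted p = 0.266). The E protein genes Tcf4 and Tcf12 had levels of 12.04 and 11.42 in the control group and differences of 0.10 and -0.02. Gata1, the erythroid GATA factor, was under the unexpressed guide at 6.25 and 6.18. Of 4 other partners, Cited2, a coactivator that binds LIM domains of Lhx2, had a difference of -0.17 (SE 0.14) and Msx1, a homeodomain protein, one of 0.03 (SE 0.07), and 0 of the 4 passed, with 0 at an unadjusted p under 0.05. Over all 19938 genes, 7.38% passed and 3484 had an unadjusted p under 0.05. In lists this short, counts of 0 or 1 do not show that the partners were unchanged.

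LIM domains also occur in proteins of the actin cytoskeleton and of cell adhesions, and 12 of 48 such genes passed, 10 lower and 2 higher, with a median difference of -0.06. Over all genes 7.38% passed, 3.63% lower and 3.76% higher, and the median difference was -0.02. Of the 48 genes, 41 were above the unexpressed guide. In a fit of only the genes above that guide, 10.9% of them passed, and 13 genes of this list did. The largest falls were of Zyx, zyxin of focal adhesions (-0.70, SE 0.12; from 11.01 ± 0.07 to 10.31 ± 0.27, SD, n = 4 each), Tes, testin, a partner of zyxin (-0.70, SE 0.07; from 7.63 to 6.93), and Pdlim5, a PDZ and LIM protein of actin filaments (-0.68, SE 0.06; from 12.34 to 11.67). The 2 rises were of Fhl2, a LIM-only coactivator that also sits at adhesions (0.98, SE 0.13; from 9.27 ± 0.22 to 10.25 ± 0.23, SD, n = 4 each), and Fblim1, migfilin, a filamin-binding adhesion protein (0.72, SE 0.13). The limma adjusted p of these 5 genes lay between 9.98e-05 and 0.0101, and the knockout level of Tes was close to the unexpressed guide, so the size of its fall is uncertain. Fhl1, a relative of Fhl2, went the other way, with a fall from 13.01 ± 0.03 to 12.38 ± 0.04 (SD, n = 4 each; difference -0.63, SE 0.05), and it was named after its value was seen, as were the other members of this paragraph below.

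Without control 1 and control 4, 6 of the 48 passed, 5 lower (Fhl1, Crip2, Lims1, Pdlim5 and Tes) and 1 higher (Fhl2), and Zyx and Fblim1 had adjusted p of 0.0545 and 0.0748 with differences of -0.74 and 0.71. In that fit of fewer arrays 3.89% of all genes passed, against 7.38% with all arrays, so the loss of calls was not particular to this list. Tgfb1i1, the paxillin relative Hic-5, was called at an adjusted p of 0.0484 and lost its call without any array except knockout 7 (up to 0.135). Ablim1, an actin-binding LIM protein, was lost without control 4 or knockout 7 (up to 0.0633). The part of the portal fibroblast markers, of which 4 of 10 rose in the same arrays, was not tested for this list either.

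**Figure D4:**
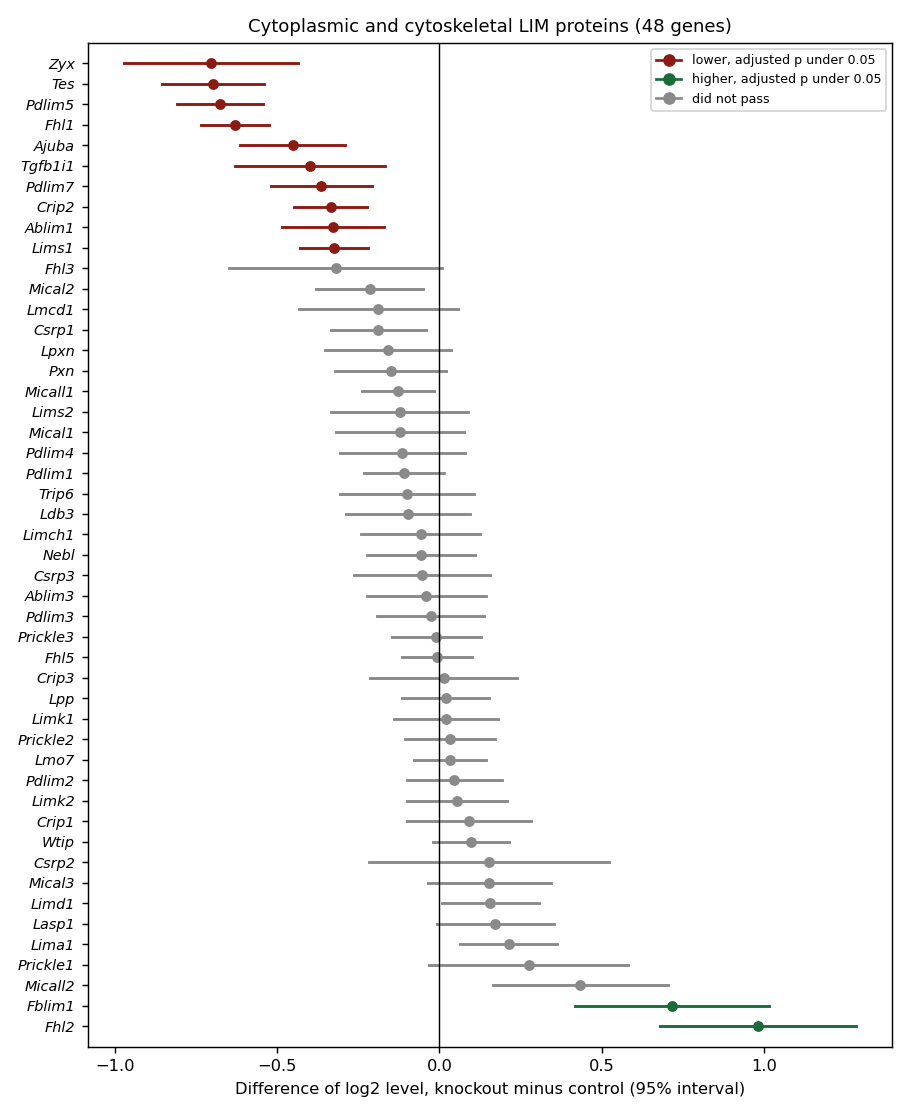
Knockout minus control difference of log2 level with its 95% interval for 48 genes of cytoplasmic and cytoskeletal LIM proteins, ordered by the difference, with dark red for lower and green for higher at a limma adjusted p under 0.05. The 10 called falls run from Zyx (-0.70) to Lims1 (-0.32), and the 2 called rises are Fblim1 (0.72) and Fhl2 (0.98).

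Among 13073 genes above the unexpressed guide, the levels most like those of Lhx2 over the 8 arrays, by Pearson r, were those of Prkab1, a subunit of the AMP-activated kinase (0.995), Plxnd1, a semaphorin receptor (0.994), Acap1, an Arf GTPase-activating protein (0.990), Angptl6, a secreted angiopoietin-like factor (0.988), and Il10ra, the interleukin-10 receptor chain (0.988). Prkab1 went from 11.70 to 11.08 and Il10ra from 9.12 to 7.90. The genes most like Ldb2 were Nr1h5, a nuclear receptor (0.997), Fgfr2, a fibroblast growth factor receptor (0.992), Acvr2a, an activin receptor (0.992), Calcrl, a receptor of calcitonin gene-related peptide and adrenomedullin (0.990), and Gpc4, a glypican (0.990). Fgfr2 went from 13.23 to 11.82 and Gpc4 from 13.03 to 12.44. All 10 were lower in the knockout at the threshold, which the choice by likeness to a fallen gene favours, so these values are a description and carry no test.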

How the data were processed

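The authors deposited log2 expression levels by probe set and array, normalized with the Robust Multichip Algorithm (RMA) per the submitters' processing notes and the label protocol. RMA compresses differences of dim and very bright probe sets. The sources used here name no RMA version, array batch or genome build. A platform annotation gave 1 symbol to 21789 of 35556 probe sets, 1621 had several and 12146 were not listed. The highest-mean probe set stood for a gene, which was no choice for the 9 members. The fit was knockout minus control with lmFit and eBayes of limma 3.58.1 (R 4.3.3) as a two-sided test, and p-values were adjusted by Benjamini-Hochberg over 19938 genes. Array medians lay between 7.42 and 7.47, and the number of arrays limits the precision. On simulated data with the spread of the 19938 genes of this comparison, 70% of 50 genes with a log2 change of 0.5 and 96% of 50 with a change of 1 were recovered, with 7 false calls over all sizes. The simulation changed far fewer genes than the 1472 called here and drew noise independently for each gene and array. Shifts shared by many genes were not modelled, so recovery and false calls in the real data can differ.

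Members and gene lists were chosen with earlier results of these data known. Named genes were the 9 members, every called gene of a pathway list with up to 6 calls and otherwise its 3 largest falls and rises, the 5 genes most like Lhx2 and Ldb2, and defining markers. Other genes named were chosen after their values were seen. Alternatives were 2 scalings, 2 filters on dim genes, trend and robust eBayes, array weights, 2 treatments of probe sets, each array left out, control 1 and control 4 left out, 2 marker covariates and a threshold of 0.01. Of the 14 lists, markers of lymphocytes, bile duct cells, erythroid cells and platelets, and mesothelium had 0, 0, 2 and 1 called genes of 6, 4, 6 and 5 measured, where 7.38% of all genes passed. The 2 of erythroid cells and platelets went opposite ways, Itga2b lower (-1.44) and Pf4 higher (0.69). The mesothelial call was Wt1, which was lower (-0.24).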

Additional observations from a re-analysis of the deposited data

Results flagged for a closer look

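Lmo2 on knockout 5, at a log2 level of 8.72, lay far below the other 3 knockout arrays, which ran from 9.08 to 9.13. Isl1 on control 3, at 6.30, lay below the other 3 control arrays, which ran from 6.603 to 6.664, all at or under the unexpressed guide. The gap to the nearest array was 0.882 and 0.832 of the group's range, above Dixon's 95% critical value for 4 samples. Of 18 groups examined these 2 were singled out, where chance gives about 1 in 20.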

How the results depend on the processing

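Under the 20 alternatives, the falls of Lhx2 (-0.73 to -0.59) and Ldb2 (-0.56 to -0.50) kept their direction and passed each time, and 0 members were called higher. Lmo4 did not pass without control 2, without control 1 and control 4, or at a threshold of 0.01, which took the cofactor list from 2 calls to 1 under each of these (1 to 2 with each array left out in turn) and the members lower from 3 to 2. Differences near 0 changed sign without being called when 1 array was left out: Lhx9 ran from -0.098 to 0.042 (positive without control 2), Ldb1 from -0.046 to 0.013 (without knockout 5) and Lhx8 from -0.065 to 0.0054 (without knockout 7). All genes called were 776 without control 1 and control 4 (fewer arrays), 775 at the threshold of 0.01 and 1010 to 1409 with 1 array left out, against 1472, and the cytoskeletal list went from 12 to 6 calls without control 1 and control 4. Median centring and quantile normalization left the median of all genes at -0.02 and -0.01. No paired analysis was possible because the groups share no replicate number. Dim members, Lhx8, Lhx9 and Isl1, lie near the unexpressed level, where small changes cannot be seen, and Lhx8 and Isl1 were not tested under the stricter filter on dim genes. Under that filter 10.9% of the genes passed, and 3 members were lower.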
